A study of Mus musculus with 48 samples.

Results

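The Myc, Max and Mxd network is a set of 9 related transcription factor genes, Myc, Max, Mxd1, Mxd3, Mxd4, Mxi1, Mnt, Mga and Mlx. They were taken by gene symbol from a named list of the network's members, chosen with earlier results of these data known. In all, 9 of 9 were found among the 47480 gene symbols of the count tables. All 9 passed the filter on low counts in each of the 12 fits described here.

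These factors share a helix-loop-helix and leucine zipper region and bind the DNA motif called the E-box as pairs. MYC paired with MAX activates genes of growth, ribosome production and nucleotide synthesis, while the MXD proteins and MNT compete with MYC for MAX and repress transcription through SIN3 corepressors. In muscle precursor cells MYC is linked to proliferation, and its level is known to fall as the cells leave the cell cycle and differentiate.

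RNA was sequenced from C2C12 cells, an established mouse myoblast line whose cells fuse into multinucleated muscle cells, grown on collagen-coated plates with flexible bottoms. The plates were either deformed evenly in all directions in repeated cycles or left still. The study asked how stretching changes gene expression and splicing, and each time point had non-stretched cells of its own. Polyadenylated RNA was made into stranded libraries, which held between 48447318 and 77080730 counts each.

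There were 12 groups of 4 libraries, 48 in all. Stretching of myoblasts lasted 1 h, 3 h or 6 h, and each duration had non-stretched myoblasts of its own. Cells differentiated in low-serum medium were treated in the same way, with non-stretched differentiated cells for every duration. In both stages replicates 7 and 8 came from one experiment and replicates 9 and 10 from another. The group of differentiated cells stretched for 1 h held replicates 4, 7, 8 and 9, and replicate 4 was the only library of its experiment. All cells were of 1 line, and the stages were grown in different experiments, so stage and experiment cannot be told apart.

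The stage labels were compared with marker genes. Summed over 6 genes of differentiated muscle, those found of 7 listed, the level ran from 6.61 to 16.2 CPM (counts scaled to the library size, with edgeR's TMM factors) in the 24 myoblast libraries. In the 24 differentiated libraries it ran from 9996 to 12338 CPM, with embryonic myosin Myh3 the most abundant. Over 6 genes of cycling cells, with Top2a the most abundant in both stages, the sum ran from 1868 to 2301 CPM in myoblasts and from 328 to 789 CPM in differentiated cells. The markers of muscle progenitors, Pax7 and Myf5, summed to between 59.5 and 90.7 CPM in myoblasts and between 42.8 and 66.0 CPM in differentiated cells. Myf5 was the more abundant in myoblasts and Pax7 in differentiated cells. Between non-stretched cells of the stages, 1 of these 2 genes was called higher in differentiated cells and 1 lower. Of 4 genes that mark leukocytes, endothelium, epithelium and adipocytes (Ptprc, Pecam1, Epcam and Adipoq), 0 passed the filter on low counts in any fit. Their highest count in any library was 9, their sum reached at most 0.229 CPM, and Ptprc was the most abundant in myoblasts and Pecam1 in differentiated cells. None of the 4 was at 0 in all libraries of a stage, and their part in the results below was not tested.

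Before any stretching, the stages held different mixtures of activator and antagonists. Myc encodes the activator and lies at chr15:61985391-61990374 on the plus strand (ENSMUSG00000022346, GRCm38). In the 12 non-stretched myoblast libraries its level was 26.9 CPM per kb of exon at the median, from 24.4 to 29.1. In the 12 non-stretched differentiated libraries the median was 10.4 CPM per kb, from 9.83 to 13.8. The ranges did not overlap, and Myc was the most abundant of the 9 genes per kb in myoblasts, with no library of Max, the next gene, as high. The length used joins all annotated exons of a gene, from 1999 bases for Mlx to 15340 for Mga. It is not the length of the transcripts expressed here, so the order between genes may depend on it.

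The order of levels per kb in non-stretched myoblasts was Myc, then Max with a mean of 13.6 and Mlx with 13.2 CPM per kb, then Mnt with 8.10 and Mxd3 with 7.72. Mga with 4.95 and Mxi1 with 4.71 followed, then Mxd4 with 3.06, and Mxd1 was the lowest with 0.902. The ranges of neighbours overlapped for Max and Mlx, for Mnt and Mxd3, and for Mga and Mxi1. In differentiated cells the genes lay closer together, and the first 5 places went to Mlx with a mean of 14.5 CPM per kb, Mxd4 with 13.5, Max with 12.2, Myc with 11.5 and Mnt with 9.58, each overlapping the next. Mxd1 with 5.63, Mga with 5.40, Mxi1 with 5.10 and Mxd3 with 3.21 came after them, and each of these 4 overlapped its neighbour too.

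**Figure D1:**
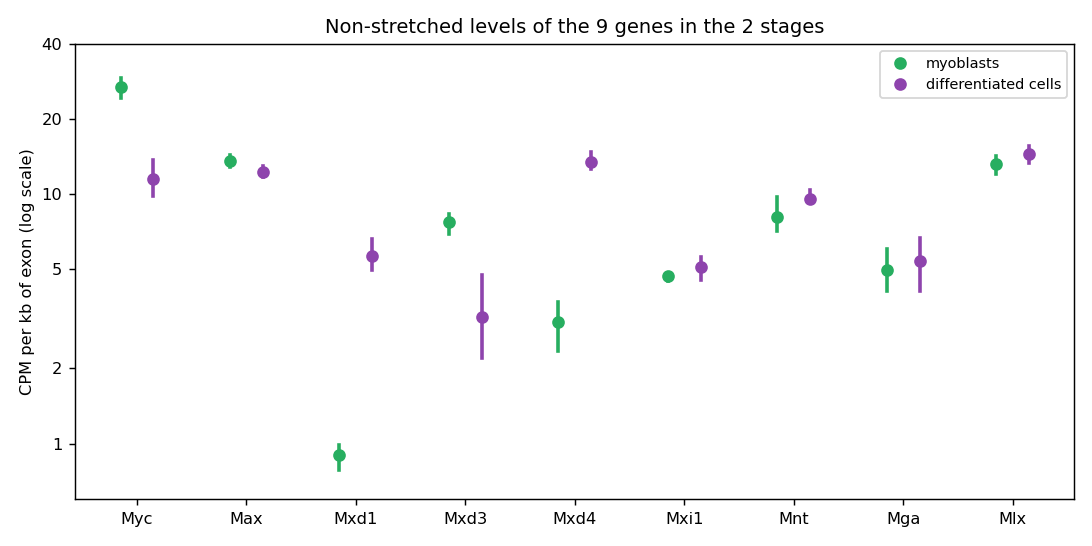
Levels of the 9 genes in non-stretched cells, in CPM per kb of exon on a log axis, for 12 myoblast and 12 differentiated libraries; points are means and bars run from the lowest to the highest library. Myc lies at 26.96 in myoblasts and 11.5 in differentiated cells, while Mxd1 and Mxd4 lie far higher in differentiated cells.

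The question of which members differ between the stages was put to the 24 non-stretched libraries with edgeR, with time in the model. Of 9 members, 8 differed, next to 89.39% of 16582 genes tested, so the share of members is near that of all genes. The sizes differed widely between members. Mxd1, an antagonist that accumulates as many cell types differentiate, was higher in differentiated cells by 2.61 on the log2 scale (SE 0.0376, adjusted p = 9.23e-29, n = 12 a stage), and Mxd4, a related antagonist, by 2.12 (SE 0.0511). Myc was lower, at -1.26 (SE 0.0578, adjusted p = 2.07e-17), and Mxd3, an antagonist known from dividing cells, at -1.31 (SE 0.0843). The remaining calls were small, from -0.19 for Max to 0.22 for Mnt, with 0.08 for Mxi1 and 0.10 for Mlx, and Mga at 0.10 was not called (adjusted p = 0.133). The 12 libraries of a stage came from the experiment of replicates 7 and 8 and that of replicates 9 and 10. The model left the experiments out and treated libraries of the same experiment as independent. Its SE and p-values therefore do not measure the spread between experiments. In bulk RNA, fewer cells of a type and less RNA per cell cannot be told apart. The sums of cycling and differentiation markers given above moved with these levels, and their part in the result was not tested.

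Genes that MYC is known to activate, 32 of them from a list of textbook targets, moved with the stage too. In differentiated cells 31 of 32 were lower and 1, the transferrin receptor gene Tfrc, was higher, by 0.72. The median of the 32 was -1.16, beside 0.00590 over all genes tested. Of all genes 89.39% were called in either direction, and that share was not split into higher and lower genes. Tfrc was named after its value was seen. Of 6 tested genes that MYC is known to repress, 6 were higher, with a median of 1.24, next to the same share in either direction. Among them were the cell cycle inhibitor gene Cdkn1a, by 3.53, and the DNA damage gene Gadd45a, by 4.36. These 2 were named after their values were seen.

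Myc was then followed through stretching, with CPM values given in the order of replicates 7, 8, 9 and 10. Non-stretched myoblasts at 1 h held 79.1, 78.3, 74.4 and 76.2 CPM, and stretched myoblasts 97.7, 97.2, 101 and 106 CPM. At 3 h the values were 70.4, 72.5, 66.2 and 70.4 CPM without stretching and 85.1, 87.3, 91.3 and 88.4 CPM with it. At both times every stretched library lay above every non-stretched one. By 6 h non-stretched myoblasts held 72.0, 67.9, 78.1 and 73.6 CPM and the stretched ones 71.6, 78.5, 72.8 and 76.9 CPM, so the groups overlapped almost fully.

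By edgeR, Myc rose in myoblasts at 1 h by 0.38 on the log2 scale (SE 0.0352, adjusted p = 1.09e-04) and at 3 h by 0.32 (SE 0.0309, adjusted p = 1.16e-05). At 6 h its fold change was 0.06 (SE 0.0414, adjusted p = 0.339), which did not pass. The difference between the effects at 6 h and 1 h was itself tested with an interaction term over 16 libraries, and it was -0.32 (SE 0.0549, adjusted p = 6.18e-04). Within the experiment of replicates 7 and 8 the mean differences in log2 CPM were 0.31, 0.27 and 0.10 for the 3 times in order. Within that of replicates 9 and 10 they were 0.46, 0.40 and -0.02.

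**Figure D2:**
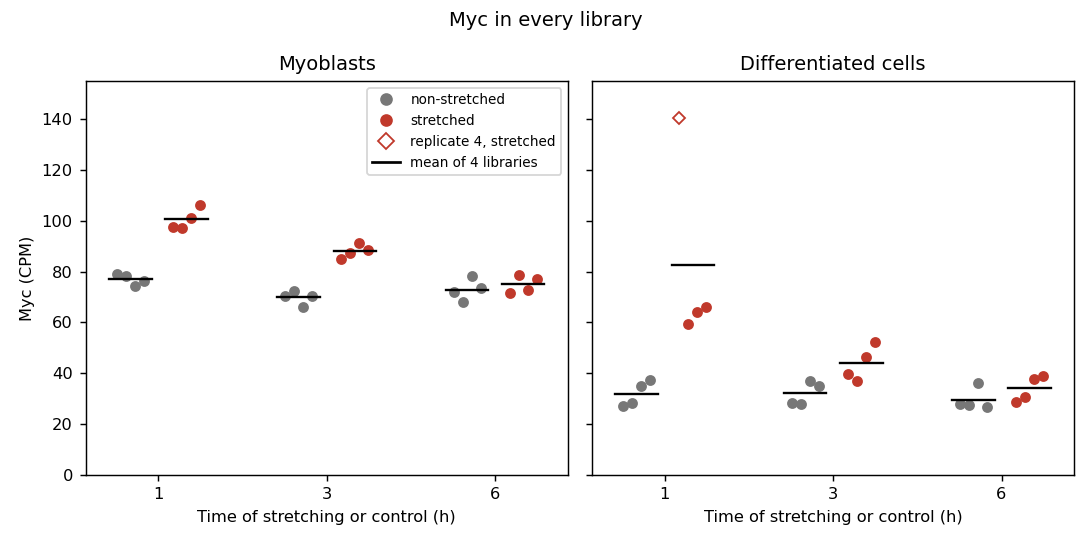
Myc in CPM in each of the 48 libraries, by hours of stretching, with 4 non-stretched and 4 stretched libraries a group, for myoblasts and for differentiated cells. In stretched differentiated cells at 1 h replicate 4 lies at 141 CPM and the others between 59.3 and 65.9, and in myoblasts the groups part at 1 h and 3 h and overlap at 6 h.

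Differentiated cells started from a lower level. Without stretching at 1 h, Myc lay at 26.9, 28.1, 35.1 and 37.4 CPM in replicates 7 to 10. With stretching it lay at 141 CPM in replicate 4 and at 59.3, 64.0 and 65.9 CPM in replicates 7, 8 and 9. All 4 stretched libraries were above all non-stretched ones, and replicate 4 stood well apart from the other stretched libraries.

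At 3 h the non-stretched differentiated cells held 28.2, 27.9, 37.0 and 35.1 CPM of Myc and the stretched ones 39.7, 36.7, 46.5 and 52.4 CPM. All but 1 stretched library exceeded all controls, and within each experiment both stretched libraries were above both controls. The 6 h values were 27.8, 27.4, 36.1 and 26.7 CPM without stretching and 28.8, 30.6, 37.8 and 39.02 CPM with it, with overlap between the groups.

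The fold change of Myc in differentiated cells at 1 h was 1.37 (SE 0.264), the largest estimate of any member in a stretch comparison, yet it did not pass in edgeR (adjusted p = 0.0536). Replicate 4 widened the spread of its group. Without replicate 4 the fold change was 0.98 (SE 0.108) and passed (adjusted p = 0.00330), and without stretched replicate 9 it was 1.46 and passed (adjusted p = 0.0468). Several other settings also passed the threshold, among them DESeq2 with 1.38 (adjusted p = 0.00269) and the experiment as a covariate with 1.04 (adjusted p = 2.99e-05). The fold change did not pass with RLE scaling or with a filter of 10 counts in each library. Of 8 edgeR fits that each left out 1 library, 6 did not pass (adjusted p up to 0.204). Within the experiment of replicates 7 and 8 the mean difference in log2 CPM was 1.16, and in the other, with 1 stretched library, it was 0.86.

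Replicate 4 differed from its group in other genes as well. Relative to the non-stretched mean, its log2 CPM was 2.15 higher for Myc against 0.91, 1.02 and 1.06 in replicates 7, 8 and 9. The immediate early gene Fos, chosen after its values were seen, was 3.89 higher in replicate 4 and 1.77, 1.89 and 2.39 higher in the other 3. Mxd1 was lower there, at -0.69, against -0.27, -0.28 and 0.02. The summed level of the 6 cycling markers was 789 CPM in replicate 4, 490, 452 and 492 CPM in replicates 7, 8 and 9, and between 409 and 544 CPM in the controls. Since replicate 4 is alone in its experiment, library and experiment cannot be told apart.

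At 3 h Myc rose in differentiated cells by 0.45 (SE 0.120, adjusted p = 0.0224 by edgeR), with 0.45 within each of the 2 experiments. The call lay near the threshold and was lost in 4 of 8 edgeR fits that each left out 1 library. Omitting control replicate 7 (fold change 0.39), control replicate 8 (0.39), stretched replicate 9 (0.42) or stretched replicate 10 (0.36) ended it. The adjusted p in these 4 fits ran from 0.0506 to 0.0606. The call was also lost when all 24 libraries of the stage were fitted together (0.45, adjusted p = 0.148). It was kept with DESeq2, with RLE scaling, with the replicate number as a block and with the experiment as a covariate. The 6 h fold change of 0.21 (SE 0.117) did not pass (adjusted p = 0.239), and the differences within the experiments were 0.11 and 0.31. Leaving out the highest control there, replicate 9, gave 0.32 and a call (adjusted p = 0.0400).

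The effect of stretching on Myc in differentiated cells was lower at 6 h than at 1 h by the interaction test, at -1.16 (SE 0.320, adjusted p = 0.0342), and at -0.78 without replicate 4 (adjusted p = 0.0106). That call was lost in 7 of 16 fits that each left out 1 library, namely on omission of control replicate 7 or 8 at 1 h, of control replicate 7, 8 or 9 at 6 h, or of stretched replicate 7 or 8 at 6 h. The fold changes in those 7 fits lay between -1.20 and -1.05. Whether the stages respond differently was tested at each time. At 1 h the difference for Myc, differentiated cells minus myoblasts, was 0.98 (SE 0.286) and did not pass (adjusted p = 0.755), nor did the 0.59 found without replicate 4 (adjusted p = 0.0852). At 3 h it was 0.12 (adjusted p = 0.762) and at 6 h 0.14 (adjusted p = 0.622).

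The members as a whole are counted against all genes tested. In myoblasts at 1 h, 1 member rose, next to 1.674% of 14938 genes, and 1 fell, next to 4.244%. At 3 h 3 rose, next to 16.02%, and 3 fell, next to 15.84%. At 6 h 3 rose, next to 14.13%, and 1 fell, next to 13.05%. In differentiated cells at 1 h edgeR called 0 members, next to 0.1931% of 15538 genes higher and 0.4698% lower, while 3 members had an unadjusted p under 0.05 and DESeq2 called 2, Myc and Mnt. At 3 h 2 rose, next to 10.80%, and 1 fell, next to 11.39%, and with the experiment as a covariate Mxd1, Mxd3 and Mnt were called as well, which made 6 members. At 6 h 3 rose, next to 11.48%, and 0 fell, next to 10.80%, where no member with a negative fold change had an unadjusted p under 0.05 or a call by DESeq2.

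The changes were also counted with a rule on their size. With a log2 fold change of at least 0.58 required in addition, edgeR called 0 of 9 members in each of the 6 stretch comparisons. The shares of all genes were 1.252%, 1.708% and 2.169% in myoblasts, by rising time, and 0.2703%, 1.631% and 2.041% in differentiated cells. A count of 0 of 9 is near these shares. Myc in differentiated cells at 1 h, with 1.37, was the only member past that size in any of the 6 comparisons, with an unadjusted p of 4.07e-04 by edgeR, and DESeq2 called it.

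**Figure D3:**
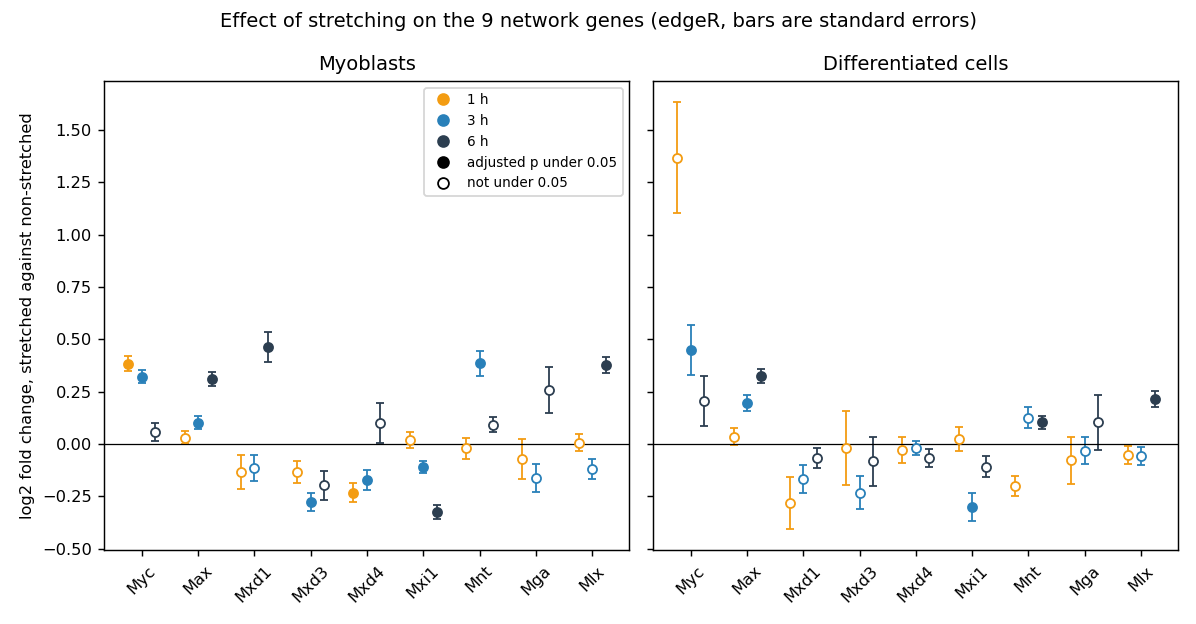
Log2 fold change of each of the 9 genes, stretched against non-stretched cells, for the 3 times of either stage, from edgeR with 4 libraries a group; bars are standard errors and filled points passed an adjusted p of 0.05. Max and Mlx are high at 6 h in both stages, with 0.31 and 0.38 in myoblasts and 0.33 and 0.22 in differentiated cells.

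A promoter motif was looked up for the members because the network's own pairs bind it. The E-box searched was CACGTG, which is its own reverse complement, so 1 search covers both strands. RefSeq promoter windows of 300 bases (250 before to 50 after a start, GRCm38.p6) were matched for 8 of 9 members, all but Myc. The motif was present for 4 of the 8, Max, Mxd4, Mnt and Mlx, next to 2349 of all 32851 windows (7.15%) and 2187 of 27025 gene symbols (8.09%). It was also present for 8 of the 26 matched MYC-activated targets (30.8%). A match describes these letters alone. Bases before and after each match are printed 5′ to 3′ on the strand of the gene, with the motif in capitals, and for Max only those before it. The positions are chr12:76962246-76962278 on the minus strand for Max, chr5:34187897-34187956 on the minus strand for Mxd4, chr11:74830774-74830833 on the plus strand for Mnt and chr11:101087223-101087282 on the plus strand for Mlx.
Max: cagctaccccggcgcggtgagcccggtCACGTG
Mxd4: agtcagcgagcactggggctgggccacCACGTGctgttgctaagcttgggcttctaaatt
Mnt: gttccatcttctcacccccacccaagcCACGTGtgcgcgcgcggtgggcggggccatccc
Mlx: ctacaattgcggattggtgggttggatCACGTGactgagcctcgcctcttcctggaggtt
In Max the motif starts 3 bases before the start of transcription, in Mlx 40 bases, in Mnt 123 bases and in Mxd4 219 bases before it.

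Max encodes the shared partner, without which neither MYC nor the MXD proteins bind DNA well, and lies at chr12:76937269-76962201 on the minus strand. In myoblasts at 1 h its values were 46.9, 47.4, 49.0 and 46.4 CPM without stretching and 48.3, 48.7, 48.0 and 49.1 CPM with it. At 3 h they were 51.1, 49.6, 47.8 and 47.5 CPM against 53.0, 54.0, 50.5 and 54.4 CPM. By 6 h they were 50.1, 50.1, 51.4 and 51.6 CPM against 61.8, 61.7, 65.1 and 60.3 CPM. The groups overlapped at 1 h, and 1 stretched library lay within the controls at 3 h, while at 6 h they were fully apart.

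Max was followed in differentiated cells too. At 1 h the controls held 43.0, 42.0, 42.7 and 42.2 CPM and stretched replicates 4, 7, 8 and 9 held 46.3, 42.1, 43.0 and 42.7 CPM. At 3 h the values were 44.6, 45.6, 44.9 and 46.6 CPM against 51.3, 54.1, 48.6 and 54.1 CPM, and at 6 h 43.7, 42.9, 45.9 and 43.7 CPM against 54.4, 54.2, 56.9 and 55.8 CPM. From 3 h on, every stretched library was above every control.

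Max rose by 0.31 in myoblasts at 6 h (SE 0.0314, adjusted p = 1.03e-04) and by 0.33 in differentiated cells at 6 h (SE 0.0334, adjusted p = 3.63e-04). In the experiments of replicates 7 and 8 and of 9 and 10 the 6 h differences in log2 CPM were 0.30 and 0.28 in myoblasts and 0.33 and 0.33 in differentiated cells. At 3 h Max rose by 0.20 in differentiated cells (SE 0.0378, adjusted p = 0.00460). The 3 h rise in myoblasts was 0.10 (SE 0.0309, adjusted p = 0.0226), and omission of control replicate 9 or 10, or of stretched replicate 8 or 10, ended its call, with fold changes between 0.08 and 0.09 in these 4 fits. The 6 h effect exceeded the 1 h effect by 0.28 in myoblasts (SE 0.0403, adjusted p = 1.32e-04) and by 0.29 in differentiated cells (SE 0.0510, adjusted p = 0.00305), both by the interaction test. Between the stages the 6 h effects differed by 0.01 (SE 0.0435), which did not pass (adjusted p = 0.954).

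Mlx encodes a MAX-like partner that pairs with the glucose-sensing factors MondoA (Mlxip) and ChREBP (Mlxipl) and with some MXD proteins, and lies at chr11:101087277-101092207 on the plus strand. In myoblasts at 6 h it held 27.2, 28.4, 27.6 and 28.4 CPM without stretching and 35.4, 35.5, 38.0 and 34.4 CPM with it. Differentiated cells at 6 h held 28.8, 31.04, 29.7 and 30.2 CPM against 36.1, 33.3, 35.7 and 34.2 CPM. In both stages all stretched libraries were above all controls at 6 h. At 1 h and 3 h the values ran from 21.9 to 29.9 CPM over both stages, and the groups overlapped at each of these times. In myoblasts at 3 h 3 of 4 stretched libraries lay below all controls, and the fold change of -0.12 (adjusted p = 0.0827) passed with all 24 libraries fitted together and without stretched replicate 10.

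Mlx rose at 6 h by 0.38 in myoblasts (SE 0.0382, adjusted p = 1.03e-04) and by 0.22 in differentiated cells (SE 0.0387, adjusted p = 0.00371). The within-experiment differences were 0.35 and 0.37 in myoblasts and 0.22 in both experiments of differentiated cells. Like that of Max, its 6 h effect exceeded the 1 h effect, by 0.38 in myoblasts (SE 0.0569, adjusted p = 2.23e-04) and 0.27 in differentiated cells (SE 0.0537, adjusted p = 0.00647). The difference between the stages at 6 h, -0.17, did not pass (adjusted p = 0.0778). Of the exon bases of Mlx, 385 of 1999 are shared with Psmc3ip on the opposite strand, and whether counting separated the strands is not given in the sources used here.

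**Figure D4:**
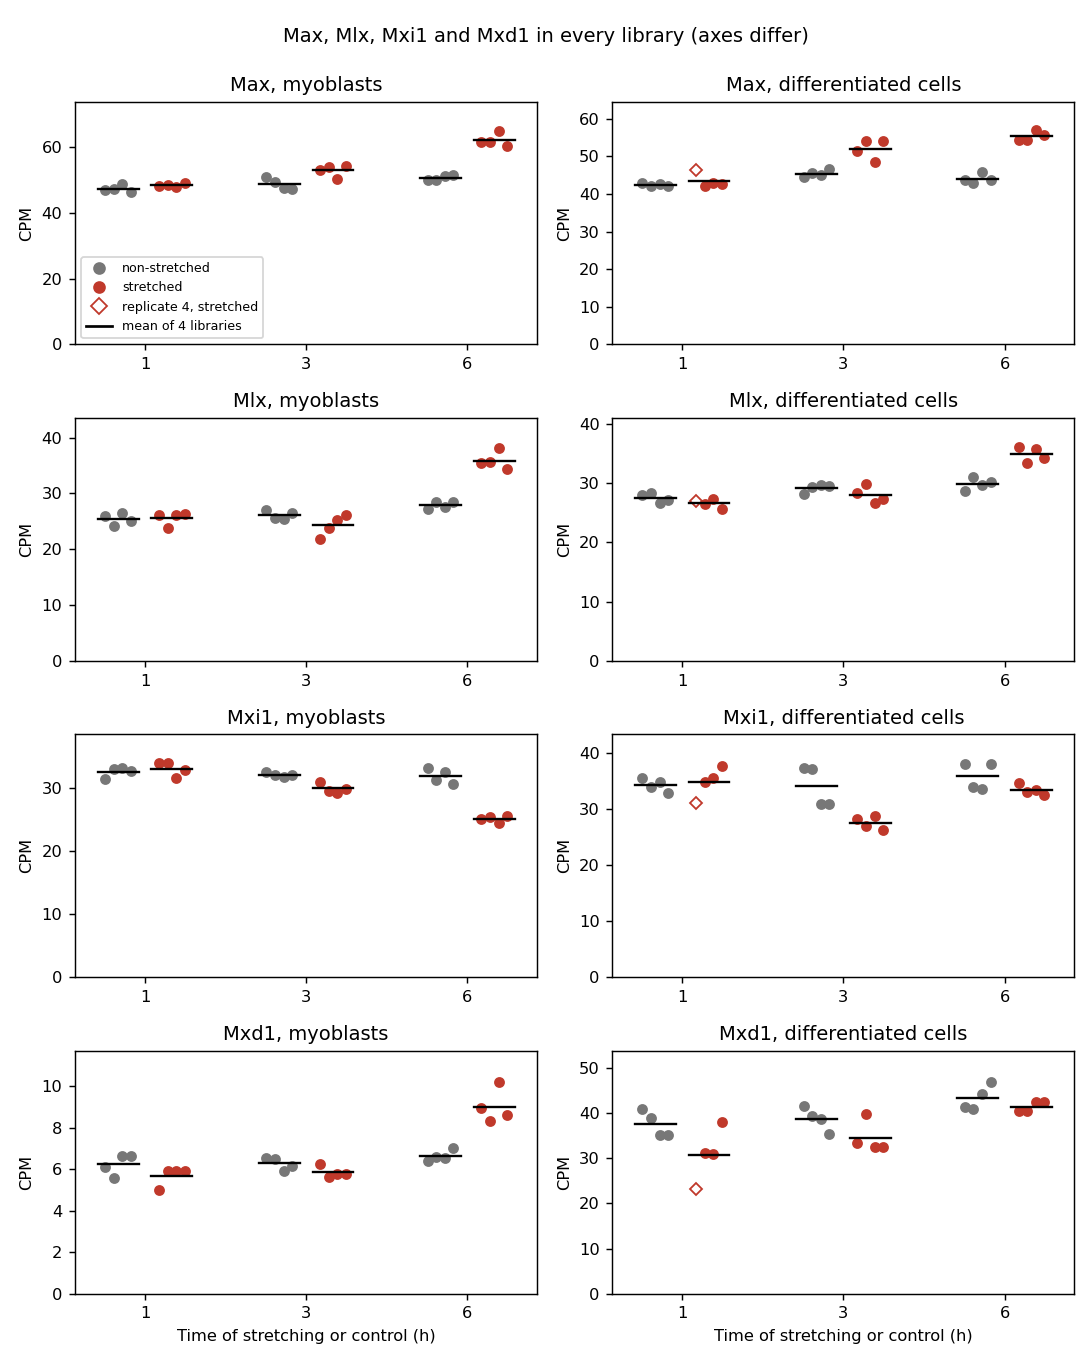
Max, Mlx, Mxi1 and Mxd1 in CPM in each library, by hours of stretching, with 4 non-stretched and 4 stretched libraries a group in each stage; the axes differ between panels and start at 0. Max and Mlx part from the controls at 6 h in both stages, Mxi1 lies between 24.4 and 25.5 CPM in stretched myoblasts at 6 h, and Mxd1 is below 11 CPM in every myoblast library.

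Mxi1 encodes an MXD antagonist, also called MXD2, and lies at chr19:53310518-53375810 on the plus strand. In myoblasts at 3 h it held 32.5, 32.01, 31.7 and 31.97 CPM without stretching and 30.9, 29.5, 29.2 and 29.8 CPM with it. The 6 h values were 33.1, 31.2, 32.5 and 30.6 CPM against 25.1, 25.4, 24.4 and 25.5 CPM. Stretched libraries were the lower ones at both times, with no overlap, and the gap was wider at 6 h.

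Differentiated cells showed lower Mxi1 at 3 h, with 37.3, 37.2, 30.99 and 30.999 CPM in the controls and 28.3, 26.99, 28.8 and 26.4 CPM in stretched cells. At 6 h the controls held 38.1, 33.9, 33.7 and 38.2 CPM and the stretched cells 34.7, 33.1, 33.4 and 32.6 CPM. The groups were apart at 3 h and overlapped at 6 h.

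Mxi1 fell by 0.11 in myoblasts at 3 h (SE 0.0283, adjusted p = 0.00942) and by 0.32 at 6 h (SE 0.0346, adjusted p = 1.39e-04), with -0.34 within both experiments at 6 h. In differentiated cells it fell by 0.30 at 3 h (SE 0.0663, adjusted p = 0.00883), with -0.43 within the experiment of replicates 7 and 8 and -0.17 within the other. The change of -0.11 at 6 h there did not pass (adjusted p = 0.146). In myoblasts the 6 h effect was below the 1 h effect by -0.34 (SE 0.0477, adjusted p = 1.08e-04). The stage difference at 6 h was 0.21 and missed the threshold (adjusted p = 0.0528). It passed with DESeq2, with RLE scaling and with no filter on low counts.

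Mxd1 encodes MAD1, the founding antagonist of the family, and lies at chr6:86647042-86669161 on the minus strand. Its counts in myoblasts were low, down to 243 in a library. At 6 h it held 6.38, 6.57, 6.56 and 7.003 CPM in non-stretched myoblasts and 8.95, 8.32, 10.2 and 8.61 CPM in stretched ones. Differentiated cells at 6 h held 41.3, 40.9, 44.1 and 46.8 CPM against 40.3, 40.3, 42.5 and 42.4 CPM. Thus all stretched myoblasts lay above the controls at 6 h, and in differentiated cells the groups overlapped.

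The rise of Mxd1 in myoblasts at 6 h was 0.46 (SE 0.0720, adjusted p = 0.00105), with 0.41 and 0.46 within the experiments. The 6 h fold change in differentiated cells was -0.07 (SE 0.0480, adjusted p = 0.352). Here the difference between the stages was called, at -0.54 (SE 0.0822, adjusted p = 0.00194), which made Mxd1 the 1 member of 9 called in that test by edgeR, next to 5.180% of 16254 genes. Its 6 h effect in myoblasts also exceeded the 1 h effect, by 0.60 (SE 0.110, adjusted p = 0.00108). In differentiated cells at 1 h the values were 40.8, 38.8, 35.1 and 35.0 CPM in the controls and 23.1, 31.1, 30.8 and 38.0 CPM in replicates 4, 7, 8 and 9, and the fold change of -0.28 did not pass (adjusted p = 0.547).

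Mxd3 encodes the antagonist found in dividing cells and lies at chr13:55325168-55329823 on the minus strand. In myoblasts at 3 h it held 19.4, 18.4, 17.3 and 17.4 CPM without stretching and 15.1, 14.8, 15.7 and 14.7 CPM with it, with no overlap. It fell by 0.28 (SE 0.0423, adjusted p = 3.15e-04), with -0.34 and -0.19 within the experiments. In the other stretch comparisons its fold changes, from -0.23 to -0.02, did not pass. The -0.20 in myoblasts at 6 h (adjusted p = 0.0578) passed with DESeq2, with no filter on low counts, with all 24 libraries fitted together, with the experiment as a covariate and without stretched replicate 8. The -0.23 in differentiated cells at 3 h (adjusted p = 0.0546) passed with the experiment as a covariate, by DESeq2, and on omission of control replicate 7 or stretched replicate 7. The difference between times or stages was not called for Mxd3. The exons of Mxd3 share 105 bases with Prelid1 on the opposite strand, those of Mxd4 514 with Gm42846 and those of Mxi1 194 with Gm10197, so the limit given for Mlx holds for these genes too.

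Mxd4, the antagonist at chr5:34173883-34187720 on the minus strand, had its called changes in myoblasts at the early times. At 1 h the controls held 25.7, 26.1, 23.7 and 27.1 CPM and the stretched cells 22.9, 21.4, 21.7 and 21.5 CPM. At 3 h the values were 30.3, 28.7, 28.9 and 31.3 CPM against 29.1, 26.8, 25.6 and 24.8 CPM. No library overlapped at 1 h, and 1 did at 3 h.

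Mxd4 fell by 0.23 in myoblasts at 1 h (SE 0.0454, adjusted p = 0.0120) and by 0.17 at 3 h (SE 0.0469, adjusted p = 0.0128). Both calls were lost when all 24 myoblast libraries were fitted together, with adjusted p of 0.0557 and 0.0799. The difference between its 6 h and 1 h effects in myoblasts, 0.34 (SE 0.118), did not pass in edgeR (adjusted p = 0.0574). It passed by DESeq2, with no filter on low counts, with the experiment as a covariate, and on omission of control replicate 9 at 1 h, control replicate 8 at 6 h or stretched replicate 10 at 6 h. In differentiated cells Mxd4 ran from 102 to 125 CPM over all 24 libraries and was not called at any time, with fold changes between -0.07 and -0.02.

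Mnt encodes a repressor that pairs with MAX and is present in dividing and resting cells alike, and lies at chr11:74830920-74845725 on the plus strand. In myoblasts at 3 h it held 32.9, 34.0, 33.4 and 35.5 CPM without stretching and 50.1, 42.6, 46.8 and 39.2 CPM with it. In differentiated cells at 1 h the controls held 44.6, 45.2, 45.1 and 48.0 CPM and stretched replicates 4, 7, 8 and 9 held 36.6, 41.2, 40.4 and 41.0 CPM. At 6 h the differentiated controls held 44.4, 42.9, 43.6 and 42.7 CPM and the stretched cells 45.9, 47.1, 45.8 and 47.8 CPM. The groups did not overlap in any of these 3 comparisons, and stretched cells were higher in myoblasts at 3 h and lower in differentiated cells at 1 h.

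Mnt rose by 0.39 in myoblasts at 3 h (SE 0.0601, adjusted p = 3.61e-04), with 0.47 and 0.31 within the experiments. In differentiated cells the 1 h fold change was -0.20 (SE 0.0486), which did not pass in edgeR (adjusted p = 0.120). At 6 h it rose by 0.10 (SE 0.0304, adjusted p = 0.0342). That small change lost its call with no filter on low counts, with all 24 libraries fitted together, and in 7 of 8 fits that each left out 1 library, all but the fit without stretched replicate 9, with fold changes between 0.09 and 0.11. The interaction test gave a 6 h effect above the 1 h effect by 0.30 in differentiated cells (SE 0.0538, adjusted p = 0.00318). The stage difference at 3 h was -0.27 and did not pass (adjusted p = 0.148).

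Mga encodes the largest protein of the set, which pairs with MAX and belongs to a Polycomb complex, and lies at chr2:119897228-119969581 on the plus strand. Its values ran from 57.3 to 112 CPM in myoblasts and from 62.6 to 123 CPM in differentiated cells. The fold changes in the 6 stretch comparisons lay between -0.16 and 0.26, and none passed in edgeR. The -0.16 in myoblasts at 3 h (adjusted p = 0.0758) passed with no filter on low counts and without control replicate 7, and the 0.26 at 6 h (adjusted p = 0.104) passed without stretched replicate 8. Its transcripts have 1.28% of their 31-base stretches in common with those of another gene, the highest share of the 9.

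Across times, 5 members had a 6 h effect unlike the 1 h effect in myoblasts, Myc, Max, Mxd1, Mxi1 and Mlx, next to 18.05% of 15455 genes. In differentiated cells there were 4, Myc, Max, Mnt and Mlx, next to 8.692% of 15981 genes. Across stages, edgeR called 0 members at 1 h, next to 0% of 16299 genes, with 3 members and 705 genes at an unadjusted p under 0.05 and 0 members and 17 genes by DESeq2. At 3 h it called 0 members, next to 1.791% of 16252 genes, with 3 members at an unadjusted p under 0.05 and 0 by DESeq2.

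Other genes around the network were counted in the same way. Of 5 listed relatives, 3 or 4 were tested in a comparison. In myoblasts 1 of 3 fell at 1 h, next to 4.244% of all genes, and 1 of 3 rose at 6 h, next to 14.13%. In differentiated cells 1 of 4 rose at 3 h, next to 10.80%. The other stretch comparisons had 0 calls among them. Mycl, a MYC paralogue, fell by 0.37 in myoblasts at 1 h (SE 0.0652, adjusted p = 0.00632), where controls ran from 7.20 to 8.19 CPM and stretched cells from 5.52 to 6.15 CPM. In differentiated cells, where Mycl was higher by 2.48 without stretching, it rose by 0.26 at 3 h (SE 0.0488, adjusted p = 0.00364), from between 39.2 and 45.3 CPM to between 48.9 and 54.7 CPM. Mlxip, which encodes MondoA, rose by 0.14 in myoblasts at 6 h (SE 0.0388, adjusted p = 0.0213). Mycn stayed at or below 21 counts in every library, Mlxipl at or below 3, and Zbtb17, whose product MIZ1 takes part in repression by MYC, was not called in any stretch comparison.

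Txnip, an inhibitor of glucose uptake and a known target of MondoA paired with MLX, was lower in stretched differentiated cells. At 3 h it ran from 50.6 to 60.4 CPM in the controls and from 21.3 to 31.8 CPM in stretched cells, and at 6 h from 54.2 to 67.8 CPM and from 32.6 to 37.9 CPM. These groups did not overlap. Txnip fell by 0.99 at 3 h (SE 0.111, adjusted p = 3.20e-04) and by 0.82 at 6 h (SE 0.0675, adjusted p = 1.60e-04), and in myoblasts by 0.16 at 3 h (adjusted p = 0.0451). The stage differences of -0.83 at 3 h (adjusted p = 0.00439) and -0.72 at 6 h (adjusted p = 0.00184) passed. Arrdc4, a related target with at most 65 counts in a library, was not called in any of the 6 comparisons. Whether MLX had a part in the change of Txnip was not tested.

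The 32 MYC-activated targets were counted in the same way. In myoblasts 1 rose at 1 h, 22 rose and 1 fell at 3 h, and 11 rose at 6 h. In differentiated cells edgeR called 0 at 1 h, with 1 at an unadjusted p under 0.05 and 0 by DESeq2, while 25 rose at 3 h and 23 at 6 h. The shares of all genes higher are those given above for the members. The median fold changes, by rising time, were 0.05, 0.13 and 0.08 in myoblasts and 0.06, 0.20 and 0.19 in differentiated cells. Over all genes tested the medians lay between -0.00745 and 0.00242.

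**Figure D5:**
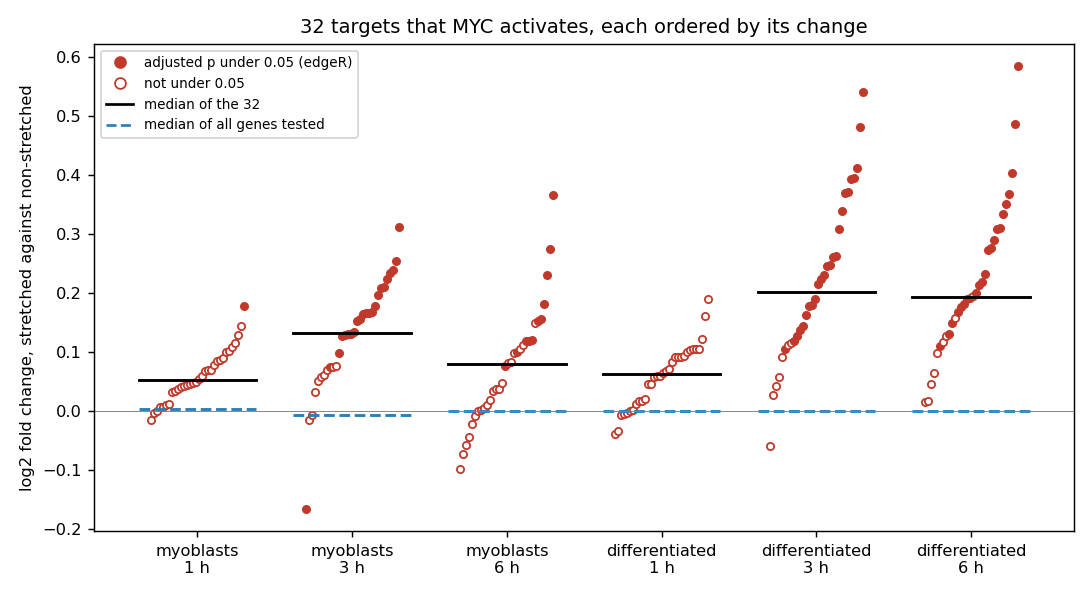
Log2 fold change of each of 32 MYC-activated targets, stretched against non-stretched cells, for the 3 times of either stage, with the targets of each comparison ordered by their change. By rising time, 26, 31 and 32 of 32 targets are above 0 in differentiated cells, and 29, 29 and 25 in myoblasts.

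Odc1, the first enzyme of polyamine synthesis, was the 1 target called in myoblasts at 1 h, by 0.18 (SE 0.0446, adjusted p = 0.0380). That count became 0 on omission of control replicate 10 or of any stretched library, and 2 on omission of control replicate 9, and was 2 with DESeq2, 2 with RLE scaling and 3 with all 24 libraries fitted together. At 3 h in myoblasts the largest rises among the targets were Gnl3, which encodes a nucleolar protein, by 0.31 (SE 0.0292), Ddx21 by 0.25 (SE 0.0223), Ncl by 0.24 (SE 0.0229) and Nop58 by 0.23 (SE 0.0235). Gnl3 went from between 112 and 114 CPM to between 136 and 149 CPM. Tfrc was the 1 that fell, by 0.17 at 3 h (SE 0.0456, adjusted p = 0.0133), and is named after its value was seen. At 6 h the same gene had the largest rise in myoblasts, 0.37 (SE 0.0497), followed by Srm of polyamine synthesis with 0.27, the mitochondrial chaperone gene Hspd1 with 0.23 and Rrp9 of ribosomal RNA processing with 0.18.

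In differentiated cells at 3 h the largest rises among the targets were Ppan by 0.54 (SE 0.0808), Gnl3 by 0.48 (SE 0.0535), Nop58 by 0.41 (SE 0.0382) and Rrs1 by 0.39 (SE 0.0410). Gnl3 went from between 52.0 and 60.3 CPM to between 76.1 and 81.5 CPM. The largest at 6 h were Hspd1 by 0.58 (SE 0.0736), Srm by 0.49 (SE 0.0828), Hspe1, which encodes the partner of the HSPD1 chaperone, by 0.40 (SE 0.0658), and Wdr12 of ribosome production by 0.37 (SE 0.0525). The myoblast count at 6 h ran from 7 to 12 when 1 library was left out, with 7 on omission of control replicate 7 or 8. The other counts ran from 19 to 24 in myoblasts at 3 h, and from 20 to 24 and 18 to 26 in differentiated cells at 3 h and 6 h.

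Between the stages the target effects at 6 h differed for 8 of 32, with 7 larger in differentiated cells and 1, that of Tfrc, smaller, next to 5.180% of all genes in either direction. For 32 targets the median stage difference at 6 h was 0.14, beside -0.00286 over all genes. The count of larger effects was 13 with DESeq2 and ran from 3 to 13 when 1 library was left out, and that of Tfrc was lost in 9 of 16 such fits. At 3 h 2 of 32 differed, Nop56 by 0.29 and Rrs1 by 0.26, next to 1.791% of all genes, with 4 by DESeq2 and 1 to 4 when 1 library was left out. These genes were named after their values were seen.

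In myoblasts at each time, and in differentiated cells at 3 h and 6 h, 1 of 6 tested MYC-repressed genes rose and 2 fell. Differentiated cells at 1 h had 0 calls by edgeR and 1 by DESeq2. The shares of all genes are those given above for the members. In myoblasts at 1 h the count of calls became 1 without stretched replicate 10. Gas1, Cdkn1b and Ndrg1 made most of the calls. Gas1, which encodes a growth arrest protein, fell in myoblasts by 0.31 at 1 h, 0.40 at 3 h and 0.63 at 6 h (SE 0.0759, 0.0539 and 0.138), and in differentiated cells by 0.24 at 3 h and 0.60 at 6 h (SE 0.0504 and 0.0627). Cdkn1b, the gene of the cell cycle inhibitor p27, fell by 0.32 and 0.20 in myoblasts at 1 h and 3 h and by 0.37 in differentiated cells at 3 h. Ndrg1, a stress-responsive gene, rose instead, by 0.20 and 0.42 in myoblasts at 3 h and 6 h and by 0.36 and 0.41 in differentiated cells. Gadd45a rose by 0.45 in myoblasts at 1 h and fell by 0.20 in differentiated cells at 6 h, and Cdkn1c fell by 0.42 in myoblasts at 6 h. The list medians lay between -0.12 and -0.03.

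The changes of cofactors were small in size. All calls among 12 corepressor and coactivator genes were at 3 h and 6 h. In myoblasts 2 of 12 rose at 3 h, next to 16.02% of all genes, Wdr5 by 0.15 and Kat5 by 0.14. At 6 h 2 rose, next to 14.13%, Sin3b by 0.10 and Kat2a by 0.10, and 1 fell, next to 13.05%, Sin3a by 0.17. In differentiated cells 2 rose at 3 h, next to 10.80%, Kat5 by 0.26 and Wdr5 by 0.15, and 1 fell, next to 11.39%, Ncor1 by 0.12, and 5 of 12 rose at 6 h, next to 11.48% of all genes, led by Kat2a with 0.21, Ruvbl1 with 0.20, Ruvbl2 with 0.17 and Wdr5 with 0.17. Among 7 genes of MYC protein turnover, Fbxw7, whose product marks MYC for destruction, rose by 0.36 in differentiated cells at 3 h (SE 0.0401, adjusted p = 2.94e-04), and Usp28, which opposes it, fell in myoblasts by 0.15 at 3 h and 0.40 at 6 h (SE 0.0417). Skp2, a ubiquitin ligase gene, fell by 0.21 in myoblasts at 1 h, and Gsk3b, a kinase gene, rose at 3 h by 0.11 there and by 0.17 in differentiated cells.

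Cycling markers also changed. In myoblasts 3 of 6 rose and 1 fell at 3 h, next to 16.02% and 15.84% of all genes, and at 6 h 3 fell, next to 13.05%, Ccnb1 by 0.14, Top2a by 0.13 and Ccna2 by 0.11. In differentiated cells Ccnb1 rose by 0.34 and Top2a by 0.12 at 3 h and Pcna by 0.21 at 6 h. Their summed level ran from 2131 to 2257 CPM in non-stretched myoblasts at 6 h and from 1868 to 2119 CPM in stretched ones. Of the progenitor markers, Myf5 rose at 6 h by 0.40 in myoblasts (SE 0.0622) and by 0.51 in differentiated cells (SE 0.0587), and Pax7 fell by 0.23 in myoblasts at 6 h (SE 0.0484). Of 5 tested genes of differentiated muscle, 1 fell in myoblasts at 3 h, next to 15.84% of all genes, and 1 at 6 h, next to 13.05%. The call at 3 h was Myog, an early gene of differentiation, which fell by 0.82 (SE 0.234). Its mean was only 104 counts, and 1 of 4 stretched libraries lay below all controls, so the groups overlapped. The part of these markers in the results for the network was not tested.

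The genes most like Myc were ranked by the Pearson correlation of log2 CPM over the 24 libraries of a stage, among genes that averaged 100 counts or more. In myoblasts they were Dusp5 (r = 0.972), Mprip (0.932), Odc1 (0.931), Dusp9 (0.926) and Slc3a2 (0.923), of 11400 genes. In differentiated cells they were Ptgs2 (r = 0.953), Gadd45g (0.950), Cyr61 (0.949), Ctgf (0.944) and Smad7 (0.941), of 11870 genes, and 0.911, 0.899, 0.896, 0.896 and 0.887 without replicate 4. The points share their groups, experiments and scaling, so the libraries are no independent sample of a relation. Fold changes within the stage that a gene was chosen in follow from the choice and are not given in this paragraph. Some genes of a list also changed in the other stage and some did not. Of the differentiated list, Ptgs2 rose by 1.01, Cyr61 by 0.81, Ctgf by 0.65 and Smad7 by 0.47 in myoblasts at 1 h and Gadd45g was not called. At 3 h Smad7 rose there by 0.53, Gadd45g by 0.49, Ptgs2 by 0.24 and Cyr61 by 0.13, and Ctgf was not called. By 6 h Ptgs2 rose by 0.32 and Smad7 by 0.24, Cyr61 fell by 0.26 and Ctgf by 0.45, and Gadd45g was not called. Of the myoblast list, Dusp5 rose by 0.73 and Odc1 by 0.26 in differentiated cells at 3 h, and Mprip, Dusp9 and Slc3a2 were not called there at any time.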

How the data were processed

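RNA of 48 libraries of C2C12 cells was sequenced. The authors aligned read pairs to mm10 with STAR, quantified them with Salmon and deposited, for each stage, whole-number counts per gene symbol without normalization. From these counts, with all 48 columns used, genes were filtered with filterByExpr, scaled with TMM and tested by quasi-likelihood in edgeR 4.0.16 (R 4.3.3, limma 3.58.1). Each stretched group was compared with the non-stretched group of its stage and time (8 libraries). Differences between times and between stages were interaction terms over 16 libraries, and the stages were compared over 24 non-stretched libraries with time as covariate. Calls needed a Benjamini-Hochberg adjusted p under 0.05 over all genes tested, and for the fold rule also a log2 fold change of 0.58 or more in size. CPM use 1 TMM scale for the 48 libraries, and log2 CPM a prior count of 1. Exon lengths, coordinates and shared 31-base stretches come from GENCODE vM21 (GRCm38), promoters from RefSeq (GRCm38.p6).

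Libraries held 48447318 to 77080730 counts, and members 237 to 8218 counts in a library. The members and lists were chosen with earlier results of these data known. Named genes are the 9 members, up to 4 called genes of each list with the largest absolute fold change and a mean of at least 100 counts, and the 5 genes most correlated with Myc. Genes named after their values were seen are marked. The pipeline was tested on simulated data. Alternatives were DESeq2 1.42.0, RLE scaling, no filter, a filter of 10 counts in each library, 1 fit to the 24 libraries of a stage, the experiment as covariate, a block for the replicate number, and leaving out each library. The same alternatives for the counts of targets were chosen after seeing the data. Replicate 9 of myoblasts stretched for 1 h bears, in its title, an experiment code found nowhere else, and in the count table the code of replicate 10, with which it was grouped. The sample labels call the RNA nuclear, while the study's methods describe RNA from washed whole cells. The source label reads myoblast for differentiated samples as well, so stage was taken from the characteristics and titles. Splicing was not analysed.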

Additional observations from a re-analysis of the deposited data

Results flagged for a closer look

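In 108 groups of 4 libraries (9 genes in 12 groups), the highest or lowest library was compared with the others by its gap as a share of the range of the group, and 9 lay beyond the 5% limit of Dixon's test. Chance alone flags about 1 in 20 groups. Myc reached 140.5 CPM in differentiated cells stretched for 1 h in replicate 4, next to 65.9, and 36.1 CPM in non-stretched differentiated cells at 6 h in replicate 9, next to 27.8. In myoblasts stretched for 1 h, Mxd1 was lowest in replicate 7 with 4.98 CPM, Mxd3 highest in replicate 7 with 16.7, Mnt lowest in replicate 8 with 41.3 and Mlx lowest in replicate 8 with 23.8. Mxd1 was highest in differentiated cells stretched for 3 h in replicate 8 with 39.7 CPM. Mnt was highest in non-stretched differentiated cells at 3 h in replicate 9 with 45.8 CPM, and Mga in differentiated cells stretched for 6 h in replicate 9 with 122.9.

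Of 45 tests of a difference between effects (edgeR interaction terms), 10 passed. From 1 h to 6 h in myoblasts the stretch effect on the log2 scale differed by -0.32 for Myc, 0.28 for Max, 0.60 for Mxd1, -0.34 for Mxi1 and 0.38 for Mlx. In differentiated cells it differed by -1.16 for Myc, 0.29 for Max, 0.30 for Mnt and 0.27 for Mlx. At 6 h the effect on Mxd1 was lower in differentiated cells than in myoblasts by -0.54.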

How the results depend on the processing

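No result changed direction past the threshold under any alternative run. Of the Myc fold changes 194 kept direction and side of the threshold, 8 gained a call and 12 lost one, and for the other called members 557 kept it and 16 lost it. Of the counts of members called, 196 stayed within 1.5 times and 18 did not. Of the counts of called MYC targets, 557 stayed within 1.5 times and 85 did not. The causes were not tested.

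For Myc in differentiated cells at 1 h, where the fold change was 1.37 and 0 members were called, the values were 1.38 and 2 members with DESeq2, 1.37 and 1 with no filter on low counts, 1.37 and 2 with all 24 libraries, and 1.04 and 1 with the experiment as a covariate. Leaving out a library gave 0.98 to 1.502 and 0 to 1 members. At 3 h all 24 libraries gave 0.45 for Myc with no call, the experiment as a covariate gave 6 members, and leaving out a library gave 0.36 to 0.53 for Myc. At 6 h leaving out a library gave 0.13 to 0.32. The difference between 6 h and 1 h in differentiated cells ran from -1.29 to -0.78. In myoblasts at 1 h all 24 libraries gave 1 member. The stage difference at 3 h gave 0 to 1 members without a library (Mnt without stretched myoblast replicate 10), and at 6 h 1 to 2, and 2 with DESeq2, RLE scaling or no filter (Mxi1 added).

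Replicate numbers were not taken as pairs in the main fits. The non-stretched library of the same number was the best match, among the 4 controls, in 10 of 23 pairs. The correlations of deviations ran from -0.0841 to 0.395, and 11 of 23 were above 0.1. These values do not settle whether libraries of 1 number belong together. With the replicate number as a block in edgeR, Myc in differentiated cells at 1 h was 1.08 (adjusted p = 1.24e-04) and 1 member was called. With the same block Mnt in differentiated cells at 6 h was 0.10 with no call (adjusted p = 0.0865), Mxd3 in myoblasts at 6 h was called, and so was Mnt in differentiated cells at 3 h.

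Depth limits Mxd1 in myoblasts and Mxd3 in differentiated cells most, with as few as 243 and 237 counts in a library. Library and experiment cannot be told apart for replicate 4.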
